A study of Mus musculus with 6 samples.

Results

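Bach2, its paralog Bach1, the small Maf genes Mafg, Mafk and Maff, and the NF-E2-related genes Nfe2l1 and Nfe2l2 were compared between Bach2 knockout and wildtype CD4 single-positive thymocytes of the mouse. These 7 genes were taken by symbol, each had 1 probe set under its symbol, and they are among 19938 genes tested. Beyond these, 1 other probe set shares a transcript record with a member without listing its symbol, and it was not used for the members. The cells were sorted by flow cytometry as Ly5.1-negative Bach2 knockout thymocytes (3 arrays) and as Ly5.1-positive wildtype thymocytes (3 arrays), all male and on a C57BL/6 background. Both genotypes came from equal-part mixed bone marrow chimeras, made in lethally irradiated Rag1 knockout hosts, which lack mature lymphocytes, so the host genotype and the irradiation were shared by all samples. Donors and hosts were 8 weeks old, and the thymi were taken 2 months after transfer. The Ly5.1 allele went together with genotype, and the labels do not say which part of Bach2 the knockout allele lacks. The design text calls the 3 samples of each genotype biological replicates from separate mice.

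Bach1 and Bach2 are transcription factors of the basic leucine zipper type, with a BTB domain, that repress genes after pairing with a small Maf protein. Small Maf proteins have no activation domain of their own. The cap'n'collar activators Nrf1, encoded by Nfe2l1, and Nrf2, encoded by Nfe2l2, use the same small Maf partners and bind closely related DNA elements, so that Bach repressors and Nrf activators can meet at the same sites. Bach2 is best known in lymphocytes, where it restrains effector and plasma cell programmes, and heme binding inactivates both Bach proteins.

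Small Maf dimers read an element built around the letters TGACNNNGC (the antioxidant response element core) or the Maf recognition element, in which GC precedes the AP-1 letters TGANTCA or TGACGTCA. The promoter windows of RefSeq on assembly GRCm38.p6, 250 bases before to 50 bases after an annotated start site, were searched on both strands for TGACNNNGC, TGANTCA, TGACGTCA and GCTGANTCA, the last of which contains TGANTCA. All 7 genes matched by symbol, with 13 such windows. Some of the Nfe2l1 windows overlap each other, so the 13 are not independent. TGACNNNGC was found in 4 of the 13 windows, in 4 genes, and it is present in 12.4% of all 32851 windows of this length. TGACGTCA was found in 1 window, against 1.79% of all windows, and TGANTCA and GCTGANTCA in 0 of the 13, against 7.81% and 1.19% of all windows. The matches are shown because they are the places near the members' own start sites that hold these letters, with the match in capitals and the flanking bases in lower case:

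Mafg, chr11:120633750-120633780, minus strand: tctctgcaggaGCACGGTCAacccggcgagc
Mafk, chr5:139791512-139791542, plus strand: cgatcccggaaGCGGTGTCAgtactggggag
Maff, upstream start site, chr15:79346498-79346528, plus strand: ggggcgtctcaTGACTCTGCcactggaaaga
Maff, middle start site, chr15:79347480-79347509, plus strand: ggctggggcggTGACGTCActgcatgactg
Nfe2l2, chr2:75704884-75704913, minus strand: tcagcccaccTGACTCCGCcatgccccgga

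In Mafg and Mafk the letters run in the opposite sense to the gene. The TGACGTCA match of Maff has no GC before it on either strand, so it lacks the GC of the Maf recognition element given above. Counted in bases from the start site, the match began at -222 in Mafg, at -13 in Mafk, at -112 and -29 in Maff and at -240 in Nfe2l2. The windows of Bach1 and Bach2 and all 5 windows of Nfe2l1 held none of the searched letters. The Bach2 window lies 179022 bases inside the annotated gene span, so it shows an internal start site. The only Mafg window likewise belongs to a start site 1408 bases inside the gene span. A match is a description of the letters and says nothing of binding in these cells.

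Bach2 fell in the knockout. Its value (log2 scale, as for all values below) was 6.50, 6.42 and 6.52 in knockout arrays, against 7.89, 8.20 and 8.05 in wildtype arrays. The knockout arrays lay close together and far below every wildtype array. The difference was -1.57 ± 0.11 (limma standard error), with a 95% confidence interval of -1.80 to -1.33, which is 2.96-fold lower (limma, adjusted p = 0.000156). By p-value Bach2 was number 4 among all genes tested, in a comparison in which 0.567% of genes passed an adjusted p of 0.05, 0.216% as lower and 0.351% as higher. The spread was larger in wildtype (SD 0.16) than in knockout arrays (SD 0.06). In sorted but bulk samples, fewer cells of a type and less RNA per cell cannot be told apart, and the probe set gives no view of which exons remain.

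**Figure D1:**
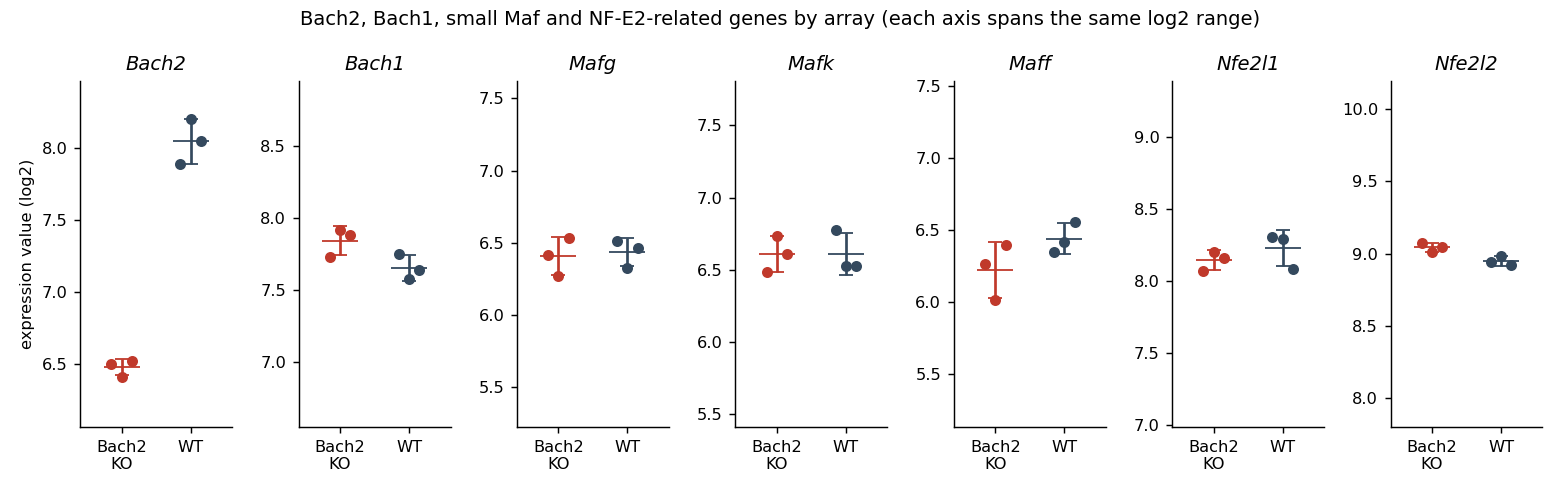
Expression values (log2) of the 7 genes by array, Bach2 knockout left and wildtype right. Points are arrays, horizontal marks the means and bars the SD (n = 3 each). All axes span the same log2 range, and the means of the 2 groups lie widest apart for Bach2, at 6.48 in knockout and 8.05 in wildtype arrays.

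None of the other 6 members passed the test, and none had an unadjusted p under 0.05 (limma, 0 of 6 for both, against 0.567% and 6.91% of all genes). Their adjusted p ran from 0.833 to 0.999. The differences lay between -0.22 and 0.19, with 2 above and 4 below 0 and a median of -0.01, beside a median of -0.01 over all genes. Each estimate has an interval of its own, given below, and a p that misses the threshold does not show that the levels were alike.

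Bach1, the paralog that shares Bach2's domain plan and is widely expressed, was at 7.73, 7.92 and 7.88 in knockout arrays, against 7.75, 7.58 and 7.64 in wildtype arrays. Knockout replicate 1 lay below wildtype replicate 1, so the groups overlapped, while the other 2 knockout arrays lay above all wildtype arrays. The difference was 0.19 ± 0.10, with an interval of -0.04 to 0.41 (adjusted p = 0.833). The interval of Bach1 reaches a gain of 0.41 at most, a size well under the fall of Bach2.

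Among the small Maf genes, Mafg was at 6.42, 6.27 and 6.53 in knockout arrays, against 6.51, 6.33 and 6.46 in wildtype arrays. The groups were interleaved, with a difference of -0.03 and an interval of -0.26 to 0.21. Mafk was at 6.48, 6.73 and 6.61 in knockout arrays, against 6.77, 6.52 and 6.52 in wildtype arrays. Here the means were equal at 6.61, with a difference of 0.00 and an interval of -0.25 to 0.25, and the lowest of the 6 values belonged to knockout replicate 1 and the highest to wildtype replicate 1.

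Maff, the small Maf gene known for induction by cytokines and stress, was at 6.27, 6.01 and 6.39 in knockout arrays, against 6.35, 6.42 and 6.56 in wildtype arrays. The groups overlapped because knockout replicate 3 lay above wildtype replicate 1. The difference was -0.22 ± 0.12, with an interval of -0.48 to 0.05 (adjusted p = 0.845), and Maff had the widest spread of the members within knockout arrays (SD 0.19). Without knockout replicate 2, the lowest array, the difference was -0.11.

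Of the activators, Nfe2l1, which drives proteasome genes, was at 8.07, 8.21 and 8.16 in knockout arrays, against 8.31, 8.29 and 8.08 in wildtype arrays. Wildtype replicate 3 lay among the knockout values. The difference was -0.08, with an interval of -0.31 to 0.14 (adjusted p = 0.984), and it ran from -0.16 to -0.04 with each array left out. Nfe2l2, the regulator of antioxidant genes that Keap1 marks for degradation, was at 9.07, 9.01 and 9.05 in knockout arrays, against 8.94, 8.99 and 8.92 in wildtype arrays. Nfe2l2 was the 1 member besides Bach2 whose groups did not overlap, where 11.7% of all genes had groups that did not overlap and 5.13% had them higher in the knockout. Its difference of 0.10 had an interval of -0.10 to 0.29 (adjusted p = 0.960), on the narrowest spread of the members (SD 0.03 in knockout and 0.04 in wildtype arrays).

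**Figure D2:**
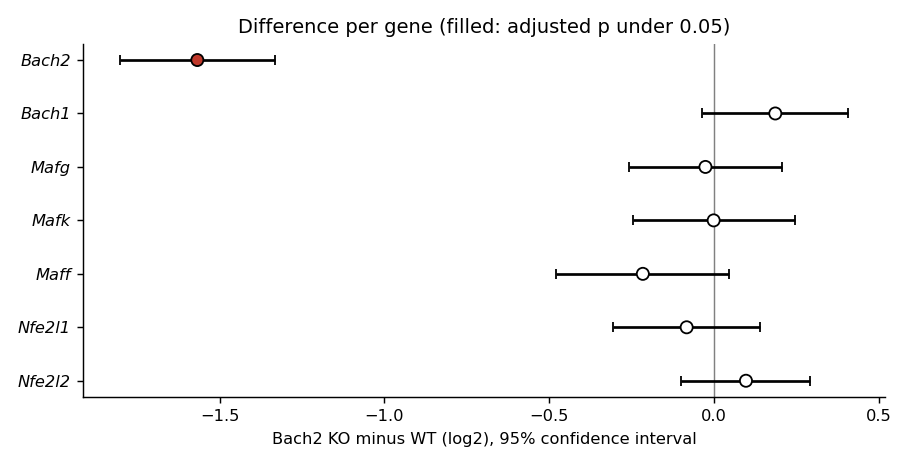
Bach2 knockout minus wildtype (log2, horizontal axis) for the 7 genes, with 95% confidence intervals from limma (n = 3 arrays each). Only the interval of Bach2, -1.80 to -1.33, lies wholly on one side of 0.

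Relatives of the members were also measured. In the list of other cap'n'collar and large Maf genes 0 of 5 tested genes passed by limma (0 at an unadjusted p under 0.05), with a median difference of 0.02. The large Maf gene Maf, a regulator of cytokine genes in helper T cells, was at 5.65, 5.72 and 5.58 in knockout arrays, against 5.91, 5.94 and 5.68 in wildtype arrays, which overlap (difference -0.19, interval -0.42 to 0.04). Nrl and Mafa, known from retina and pancreatic beta cells, differed by -0.26 and 0.12. Both values moved with single arrays: Nrl was at -0.13 without wildtype replicate 1 and -0.42 without wildtype replicate 2, and Mafa at 0.004 without wildtype replicate 2. Nrl was also dim, with means of 3.47 in knockout and 3.73 in wildtype arrays.

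Of 12 tested genes that control the turnover of these factors, 0 passed by limma, beside 0.567% of all genes. Their median difference was 0.02. An unadjusted p under 0.05 by limma was found for 6.91% of all genes and for 1 of these 12. That gene, Fbxo22, encodes a ubiquitin ligase subunit that targets Bach1 and was at 6.75, 6.83 and 6.78 in knockout arrays, against 6.32, 6.60 and 6.39 in wildtype arrays. The groups did not overlap (difference 0.35, interval 0.13 to 0.58, adjusted p = 0.323). The kinase gene Gsk3b differed by -0.25 and the ubiquitin ligase gene Syvn1 by 0.12, both with overlapping groups. Gsk3b was at -0.12 without knockout replicate 1 and -0.14 without wildtype replicate 2, and Syvn1 ran from 0.07 to 0.19 with each array left out. Keap1 itself differed by 0.01, with an interval of -0.22 to 0.24; it was chosen after its values were seen.

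Antioxidant and heme genes, at which Nrf and Bach dimers with small Maf proteins act, held 0 of 23 tested genes past the test by limma and 3 with an unadjusted p under 0.05, beside 6.91% of all genes. Their median difference was 0.02. The groups did not overlap in 4 genes with the knockout higher and in 2 with it lower, beside 5.13% and 6.57% of all genes. Gsta4, a glutathione transferase that clears lipid peroxidation products, was at 6.14, 6.22 and 5.53 in knockout arrays, against 7.33, 6.85 and 6.82 in wildtype arrays. Every knockout value lay below every wildtype value, with a difference of -1.04 ± 0.19 and an adjusted p of 0.0536, just short of the threshold. Gsta4 passed in 5 of 16 alternative fits, whose adjusted p by limma ran from 0.0149 to 0.639.

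Gsr, glutathione reductase, was at 6.73, 6.99 and 6.78 in knockout arrays, against 6.31, 6.29 and 6.38 in wildtype arrays. Txnrd1, thioredoxin reductase, was at 6.86, 6.92 and 6.84 in knockout arrays, against 6.55, 6.56 and 6.39 in wildtype arrays. Both had all knockout values above all wildtype values, with differences of 0.51 (interval 0.29 to 0.74, adjusted p = 0.0706) and 0.37 (interval 0.16 to 0.58, adjusted p = 0.217). Gsr passed in 1 of 16 alternative fits, the one without dim genes (adjusted p = 0.0386, range over the fits 0.0386 to 0.465). Hmox1, heme oxygenase and the best known gene repressed by Bach1, averaged 4.85 in knockout and 4.81 in wildtype arrays, a difference of 0.03 with an interval of -0.29 to 0.35. Nqo1 and Gclm, standard Nrf2 targets, differed by 0.09 and -0.09. These last 3 genes were named after their values were seen. Nqo1 averaged 3.434 in knockout and 3.345 in wildtype arrays. Both Nqo1 and Hmox1 had means under 4.94, the level used to leave out dim genes. Whether weak signal bears on their small differences was not tested.

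**Figure D3:**
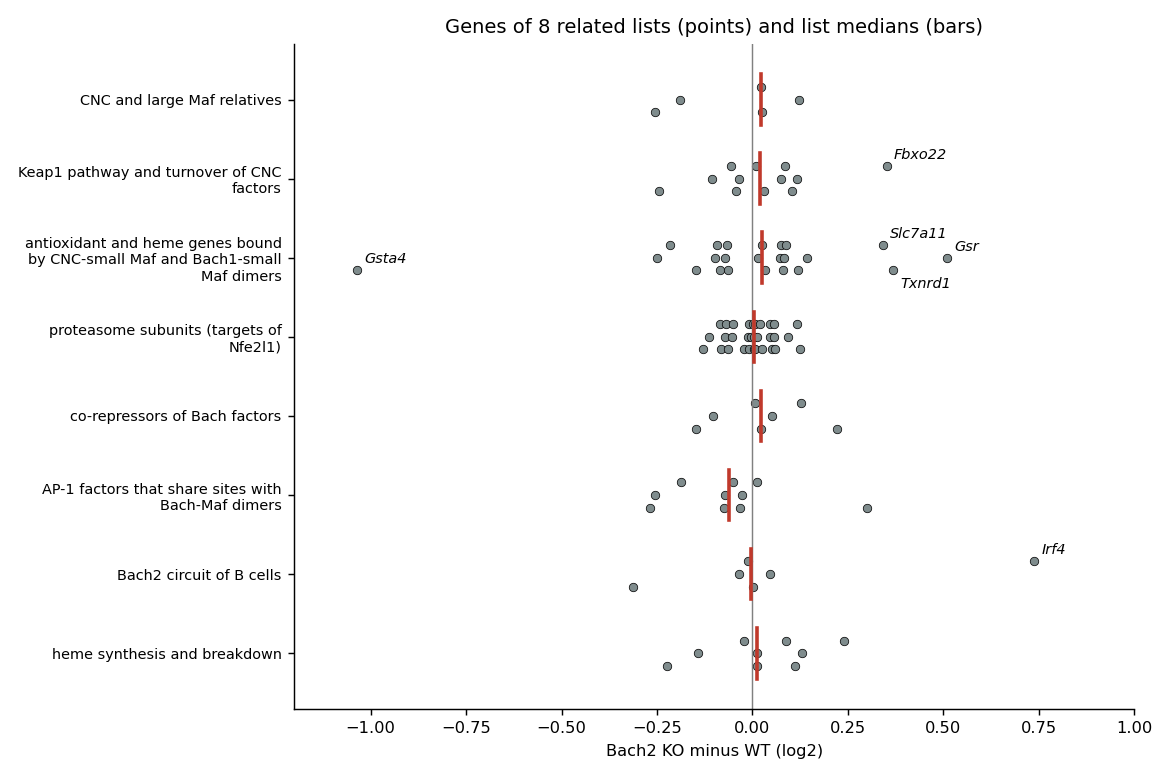
Bach2 knockout minus wildtype (log2, horizontal axis) for the genes of 8 related lists. Grey points are genes and red bars list medians, which lie between -0.06 and 0.02. The genes farthest from 0 are named, from Gsta4 at -1.04 to Irf4 at 0.74.

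The 31 tested proteasome subunit genes, which Nrf1 activates as a set when the proteasome is impaired, lay within a narrow range of -0.13 to 0.12. None passed by limma or had an unadjusted p under 0.05 (0 of 31 for both), 17 were above and 14 below 0, and the median was 0.005. Psma3 differed by 0.12, Psmd7 by -0.13 and Psma1 by 0.12, and with each array left out Psmd7 ran from -0.20 to -0.07 and Psma1 from 0.06 to 0.18. Of 9 tested genes of heme synthesis and breakdown, 0 passed by limma and 0 had an unadjusted p under 0.05. Alad, Cpox and Alas1, 3 enzymes of heme synthesis, differed by 0.24, -0.23 and 0.13, and for Alas1 every knockout value (6.74, 6.80 and 6.74) lay above every wildtype value (6.65, 6.65 and 6.58). Cpox was at -0.14 without knockout replicate 3.

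Of 7 tested co-repressor genes of Bach factors, 0 passed by limma (0 at an unadjusted p under 0.05), with a median difference of 0.02. The deacetylase gene Hdac1 differed by -0.15, with knockout values of 9.46, 9.48 and 9.42, against wildtype values of 9.57, 9.72 and 9.50, and it was at -0.08 without wildtype replicate 2. Gps2 and Rif1 differed by 0.13 and 0.22 with overlapping groups. Gps2 was at 0.07 without wildtype replicate 1, and Rif1 ran from 0.11 to 0.40 with each array left out. Of the 10 AP-1 genes, whose proteins compete for sites with Bach and Maf dimers, 0 passed by limma and 3 had an unadjusted p under 0.05. Those were Fosl2 (-0.25), Batf (-0.27) and Batf2 (0.30), each with groups that did not overlap, beside a list median of -0.06. Over all genes 6.91% had an unadjusted p under 0.05 and 11.7% had groups that did not overlap. Without wildtype replicate 2 Batf2 differed by 0.16.

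In B cells Bach2 acts in a circuit with Prdm1, Bcl6 and Irf4. Of the 6 tested genes of that circuit 0 passed by limma and 2 had an unadjusted p under 0.05. Over all genes these shares were 0.567% and 6.91%. Irf4, a transcription factor induced by antigen receptor signalling, was at 7.37, 7.75 and 7.59 in knockout arrays, against 6.45, 7.17 and 6.87 in wildtype arrays. The groups did not overlap and the difference was 0.74 ± 0.17 (interval 0.36 to 1.12, adjusted p = 0.143), which passed in 3 of 16 alternative fits, among them the one without wildtype replicate 2 (0.91, adjusted p = 0.0444, range over the fits 0.0212 to 0.715). Irf8 differed by -0.31 (interval -0.60 to -0.03, and -0.20 without knockout replicate 1) and Bcl6, a repressor with a BTB domain like Bach2, by 0.04. Prdm1, the plasma cell and effector repressor that Bach2 silences in B cells, was at 4.51, 4.61 and 4.89 in knockout arrays, against 4.63, 4.81 and 4.67 in wildtype arrays. Its groups overlapped (difference -0.04, interval -0.30 to 0.23), and both means, 4.67 and 4.70, lay under the level used to leave out dim genes. Prdm1 was chosen after its values were seen.

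The chromosomal surroundings of Bach2 on chromosome 4 were read from the 10 tested genes on each side in gene order. None of these 20 genes passed by limma and 3 had an unadjusted p under 0.05, beside 0.567% and 6.91% of all genes. Groups did not overlap for 4 of them, all lower in the knockout, beside 6.57% of all genes. The GABA receptor subunit gene Gabrr2 was at 5.89, 5.78 and 5.69 in knockout arrays, against 6.12, 6.25 and 6.13 in wildtype arrays (difference -0.38, interval -0.60 to -0.17, adjusted p = 0.209). Prdx6-ps2, annotated as a pseudogene whose probes may also bind Prdx6, differed by -0.30, and Casp8ap2 by -0.31; Casp8ap2 was named after its values were seen, as was the next gene. Bach2os, annotated beside Bach2 and named as its opposite-strand transcript, was at 4.73, 5.18 and 5.03 in knockout arrays, against 5.16, 4.96 and 5.17 in wildtype arrays, which overlap (difference -0.11, interval -0.40 to 0.17).

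**Figure D4:**
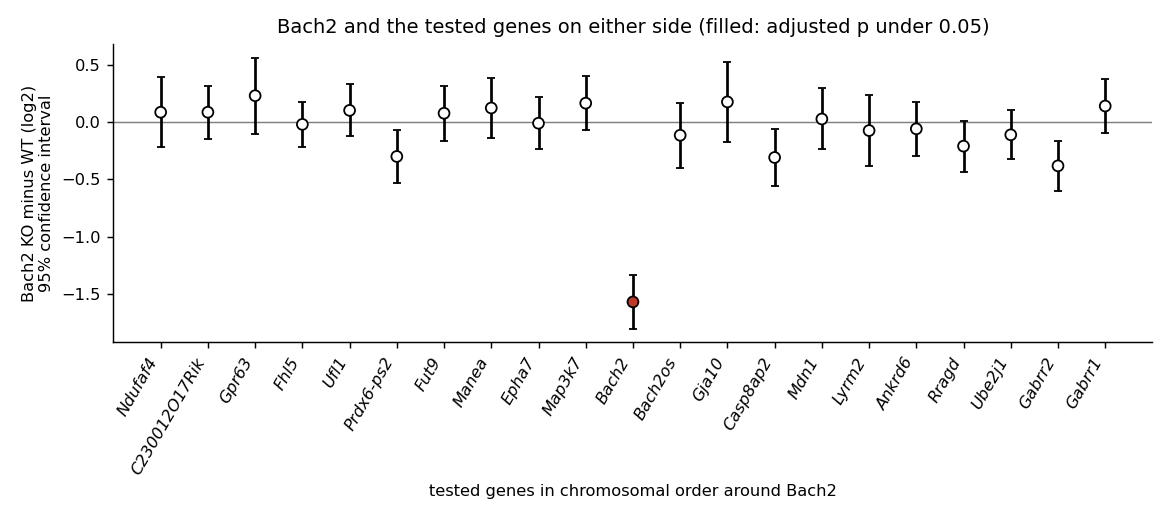
Bach2 knockout minus wildtype (log2, vertical axis, 95% confidence intervals, n = 3 arrays each) for Bach2 and the 10 tested genes on each side, in chromosomal order. Bach2 lies at -1.57, and the 20 other genes lie between -0.38 and 0.23.

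The genes whose pattern over the 6 arrays was most like that of Bach2 were sought among 108 genes with a spread of at least 0.5 (SD over the 6 arrays). Symbols of predicted genes, clones, small RNAs and T cell receptor segments had been left out of these 108. The highest Pearson's r with Bach2 belonged to Arhgap20 (0.991), Ctse (0.990), Cd55 (0.989), Foxp3 (0.982) and Rell1 (0.980). The lowest belonged to Rflnb (-0.998), Axin2 (-0.994), Rundc3b (-0.990), Ccr4 (-0.985) and Smco4 (-0.984). These values describe 6 arrays in 2 genotypes and mostly restate the genotype difference, since each of the 10 genes passed the test, 5 lower and 5 higher in the knockout. Rell1 was at 5.40, 5.72 and 5.61 in knockout arrays, against 6.64, 6.90 and 6.93 in wildtype arrays (difference -1.25, adjusted p = 0.00137). Axin2, a feedback inhibitor of Wnt signalling, was at 7.93, 7.99 and 7.98 in knockout arrays, against 7.06, 6.97 and 7.13 in wildtype arrays (difference 0.92, adjusted p = 0.00148). Rundc3b rose by 1.00 and Smco4 by 1.13.

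**Figure D5:**
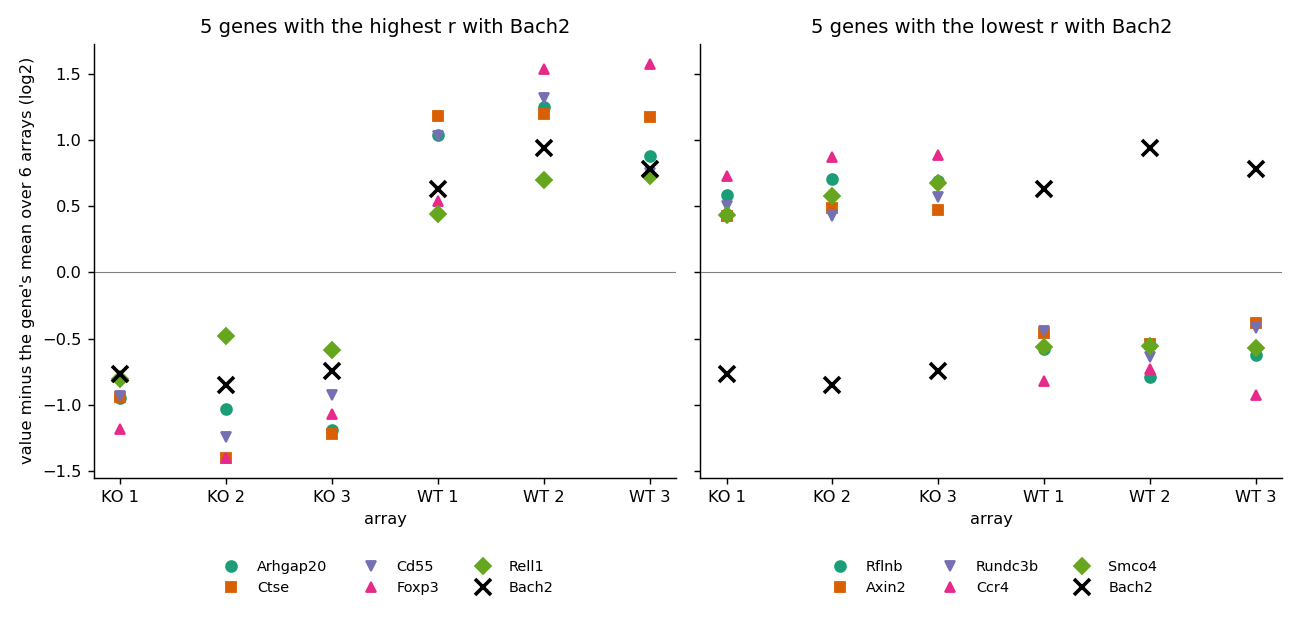
Value minus each gene's mean over the 6 arrays (log2, vertical axis) by array for Bach2 (crosses) and the 5 genes with the highest (left) and the lowest (right) Pearson's r with it. The left genes lie below 0 in knockout arrays and above 0 in wildtype arrays, as Bach2 does, and the right genes the other way round.

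Within the wildtype arrays, Bach2 was lowest in replicate 1 (7.89), and so was Foxp3, the factor that defines regulatory T cells, at 7.30. Replicates 2 and 3 were in opposite order, with Bach2 at 8.20 and 8.05 and Foxp3 at 8.29 and 8.33. Foxp3 was also picked above for its r with Bach2 over these same arrays. The 7 tested CD4 T cell genes averaged 10.50, 10.48 and 10.48 in knockout arrays, against 10.46, 10.52 and 10.47 in wildtype arrays, and 0 of 7 passed by limma. Some of them, such as the CD3 chain genes, are shared with other T cells, so their level alone does not show a CD4 single-positive sample. Of 10 regulatory T cell markers 4 passed as lower and 8 had an unadjusted p under 0.05 by limma. Over all genes 0.216% passed as lower, 0.351% as higher, and 6.91% had an unadjusted p under 0.05. List means were 7.09, 7.03 and 7.12 in knockout arrays, against 7.59, 8.36 and 8.32 in wildtype arrays. Differences lay below 0 for 9 markers and above 0 for 1, Gpr83 (0.72, unadjusted p = 0.017 by limma), which was named after its values were seen. Immature thymocyte markers had 0 of 6 past the test and 3 with an unadjusted p under 0.05, all 6 above 0, and means of 6.02, 6.61 and 7.13 in knockout arrays, against 5.74, 6.13 and 6.09 in wildtype arrays. CD8 T cell markers had 0 of 6 past the test and 4 with an unadjusted p under 0.05, with means of 6.64 to 7.01 in knockout and 7.04 to 7.28 in wildtype arrays. Their members lay on both sides of 0: Runx3, Eomes, Cd160 and Nkg7, the 4 genes just counted, differed by -0.55, -0.69, -0.44 and -0.76, while the CD8 chain genes Cd8a and Cd8b1 differed by 0.37 and 0.14, with Cd8a at 7.67, 7.90 and 8.90 in knockout arrays, against 7.86, 7.67 and 7.83 in wildtype arrays. These 6 genes were named after their values were seen. Of 7 macrophage and dendritic cell markers 1 passed as higher, Lyz2 (1.39), and 2 had an unadjusted p under 0.05 by limma. The other of those 2, Itgam, differed by -0.33, with every knockout value below every wildtype value. Of the 7 markers 4 lay above and 3 below 0, with a median difference of 0.08. Their means were 5.27, 5.13 and 5.02 in knockout arrays, against 4.83, 4.87 and 5.003 in wildtype arrays. Lyz2 and Itgam were named after their values were seen. B cell, erythroid and epithelial markers had 0 of 5, 0 of 6 and 0 of 5 past the test. The part of these cells in the values of the 7 genes was not tested.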

How the data were processed

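The authors deposited 1 log2 value per probe set and array for 35556 probe sets; the submitters' processing notes name RMA and Partek, without versions. That the scale is log2 was inferred from a range of 1.10 to 13.2 and array medians of 4.93 to 4.97. Per the labels' protocols, 5.5 µg of amplified cDNA was labelled. After RMA the arrays share a distribution, which hides any shift common to all genes. The number of arrays, 3 of each genotype, limits the precision.

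Symbols came from the platform's annotation, in which 21789 probe sets had 1 symbol. The probe set with the highest mean stood for each gene, which gave 19938 genes. Knockout minus wildtype was fitted across all genes in R 4.3.3 by limma 3.58.1, using lmFit and eBayes; p-values are two-sided and were adjusted by Benjamini-Hochberg across the 19938 genes, with 0.05 as the threshold. The procedure was tested on simulated data. There 64% of changes of 0.5 and 100% of changes of 1 (log2) were recovered, and 13 unchanged genes were called. No change smaller than 0.5 was simulated. Alternatives were other priors, no moderation, dim genes left out (10614 genes kept), centring on the median, repeated quantile normalization, weighted arrays, the mean of a gene's probe sets, every probe set, a replicate block and each array left out in turn; background correction could not be varied on RMA values.

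The members and gene lists were chosen with earlier results of these data known. In each list the 3 genes with the smallest p are named, and of the neighbours the 2 with the smallest p. Genes named after their values were seen are marked so. Figures were drawn with matplotlib 3.10.9.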

Additional observations from a re-analysis of the deposited data

How the results depend on the processing

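The fall of Bach2 passed under every alternative run except the linear model without moderation, where the difference was -1.57 with an adjusted p of 0.0955. It lay between -1.65 and -1.49 when each array was left out in turn. The number of the other 6 members past the test was 0 under all alternatives. Mafg and Mafk, close to 0, changed sign. With each array left out Mafg ran from -0.088 to 0.041 (positive at 0.041 without knockout replicate 2 and 0.014 without wildtype replicate 1) and Mafk from -0.063 to 0.083 (positive at 0.062 without knockout replicate 1 and 0.083 without wildtype replicate 1), and Mafk was at 0.002 with median centring and 0.017 with array weights. Bcl6 ran from -0.031, without knockout replicate 3, to 0.094. The 113 genes past the test became 178 with a prior that follows the mean level, 1 without moderation and 37 with all probe sets, and 47 to 118 with each array left out, the fewest without wildtype replicate 3 (62 and 63 without knockout replicates 3 and 2). Of the antioxidant and heme list, 1 gene passed with the prior that follows the mean level, with median centring, with array weights or with the replicate block, and 2 with dim genes left out. Of the B cell circuit 1 gene passed with array weights or with the replicate block, and 0 to 1 with each array left out. The causes were not tested.

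With the replicate number as a block 134 genes passed and Bach2 had an adjusted p of 0.000799. Whether the replicate numbers pair the samples could not be told. Deviations of same-numbered arrays from their group means correlated at 0.213, 0.113 and -0.065 (Pearson's r across genes). Knockout replicates 1 and 2 correlated best with the wildtype array of the same number, and knockout replicate 3 with wildtype replicate 2 (0.172).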
